A study of Bos taurus with 9 samples.

Results

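CCL27, AIF1 and PYCARD are 3 genes linked to inflammation, followed here across 9 RNA sequencing libraries of bovine blastocysts, the early embryos that hold a fluid-filled cavity. They were taken by gene symbol from a deposited table of 47 genes presented as differentially expressed, and all 3 were found. The table itself is a list selected on values of these 9 libraries, and the members were picked from it with their values known. The AKG-treated group came from vitrified (cooled to a glass without ice) and warmed blastocysts labelled AKG+, for α-ketoglutarate (AKG), a metabolite of the tricarboxylic acid cycle. The label does not say at which step AKG was present. The AKG-free group was vitrified and warmed without AKG, and the control group has a label that names neither vitrification nor warming. Each group had 3 libraries, labelled as female embryos, and the library type is labelled single cell while the source is the embryo. The sources used here give no dose or timing of AKG, no day of culture and no number of embryos per library. They also give no rule by which the 47 genes were listed. The AKG-free mean was the highest of the 3 groups for 38 genes and the lowest for the other 9. Comparisons that involve the AKG-free group are therefore described with values. No p-value is given for a member there, and counts of calls by a test only describe the list.

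The members act at different points of an inflammatory response. CCL27 is a secreted chemokine, best known from human and mouse skin, where keratinocytes make it and T cells follow it through the receptor CCR10. PYCARD, also called ASC, is the adaptor of the inflammasome: it links a sensor in the cytosol to an inflammatory caspase, which then activates cytokines. AIF1, also called IBA1, binds calcium and actin and is used as a marker of macrophages and microglia. Their roles are known mainly from immune and barrier tissues of human and mouse.

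CCL27 (ENSBTAG00000014908) lies on the minus strand of chromosome 8, from 76027403 to 76028140. PYCARD (ENSBTAG00000020535) lies on the minus strand of chromosome 25, from 27285067 to 27286399. AIF1 (ENSBTAG00000020554) lies on the minus strand of chromosome 23, from 27685449 to 27687723. These positions come from the deposited table, and the sources used here name no genome build for it. By gene order in RefSeq's ARS-UCD2.0 annotation, CCL27 sits next to the interleukin receptor gene IL11RA, and AIF1 is followed by LST1, LTB and TNF. The AIF1 model overlaps that of NCR3, a receptor gene of natural killer cells, and no gene model overlaps CCL27 or PYCARD in that annotation. The labels do not say whether counting used strand, so reads of AIF1 and NCR3 in their overlap could not be told apart. In the pathway labels of the table, CCL27 and PYCARD were the 2 of 16 labelled genes with an inflammation or innate immune term. CCL27 carried chemokine and cytokine labels, PYCARD carried NOD-like receptor, cytosolic DNA sensing and necroptosis labels, and AIF1 carried 0 pathway labels.

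Levels are in FPKM: the fragments of a gene divided by its length and by the mapped fragments of the library, so that levels can be compared between genes. Relative sequencing depth ran from 0.793 to 1.17 over the 9 libraries. AKG-free libraries 2 and 3 stood apart from the other libraries: the 47 genes summed to 2754 and 3983 FPKM in them, against 647 in AKG-free library 1, 461 to 673 in the AKG-treated libraries and 439 to 473 in the control libraries. S100A11, a calcium-binding protein, made 42.8% and 46.9% of the sum in those 2 libraries and 8.87% in AKG-free library 1. Of the 47 genes, 1 was highest in AKG-free library 1, 18 in library 2 and 19 in library 3. CCL27 and PYCARD were among the 18 and AIF1 among the 19. The part that this difference between libraries plays in the results was not tested, and the ratios of group means are also given without the library they rest on.

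CCL27 was read in every AKG-free library, in 1 AKG-treated library and in no control library. In AKG-treated libraries 1, 2 and 3 it had 0.455, 0 and 0 FPKM, from 11, 0 and 0 counts. In AKG-free libraries 1, 2 and 3 it had 3.91, 12.2 and 4.56 FPKM, from 110, 314 and 135 counts. The control libraries had 0 counts each. AKG-free library 2 was the high one, the other 2 AKG-free libraries lay close together, and no AKG-treated or control library reached the lowest AKG-free value. For the 11 counts of AKG-treated library 1, the exact Poisson 95% interval was 5.49 to 19.7 counts, or 0.240 to 0.860 FPKM. This interval and the floors for 0 counts cover counting error only, since no molecular identifiers separate amplified copies from molecules. A count of 0 allowed up to 3 counts, a one-sided limit that is lower than the upper end of the exact interval for 0 counts, and which corresponds to 0.108 to 0.149 FPKM of CCL27 in the control libraries. The CCL27 mean was 0.152 ± 0.263 FPKM in AKG-treated libraries, 6.90 ± 4.62 FPKM in AKG-free libraries and 0 in controls (SD, n = 3 each).

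Set against that floor of 3 counts in each control library, the AKG-free mean of CCL27 was at least 53.4-fold higher than the control. Without AKG-free library 2 the bound became 32.8-fold. With the AKG-treated libraries without reads taken as 0, the AKG-treated mean was 0.0220 times the AKG-free mean, and 0.0358 times without AKG-free library 2. Without AKG-treated library 1, which held the only reads of that group, the ratio was at most 0.0171. Of the 47 genes, 22 had no reads in controls, and CCL27 and the small heat shock protein gene CRYAB were the 2 of these with reads in all 3 AKG-free libraries.

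PYCARD was read in AKG-free libraries 2 and 3 alone among the 9. It had 0 counts in all 3 AKG-treated libraries. In AKG-free libraries 1, 2 and 3 the values were 0, 5.77 and 1.63 FPKM, from 0, 276 and 90 counts (exact Poisson 95% intervals of 244 to 311 and 72.4 to 111 counts for libraries 2 and 3). The control libraries had 0 counts each. The AKG-free group therefore overlapped the other groups at 0 through its library 1. A count of 0 allowed up to 0.0621 to 0.0704 FPKM of PYCARD in AKG-treated libraries, 0.0575 FPKM in AKG-free library 1 and 0.0580 to 0.0802 FPKM in control libraries. The level in AKG-free library 3, 1.63 FPKM, was above the limit of library 1.

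The AKG-free mean of PYCARD, 2.47 ± 2.98 FPKM (SD, n = 3), had an SD larger than the mean. It was at least 35.6-fold above the control floor, a bound that became 11.8-fold without AKG-free library 2 and 53.4-fold without AKG-free library 1. The AKG-treated group, with no reads, was at most 0.0266 times the AKG-free mean, and at most 0.0805 times without AKG-free library 2. Of the 47 genes, 20 had no reads in any AKG-treated or control library. Among these, 18 had reads in 1 AKG-free library, and PYCARD and the serine protease gene PRSS48 had reads in 2. PRSS48 was read in AKG-free libraries 1 and 2, and so shared 1 library with PYCARD. PRSS48, CRYAB and S100A11 were chosen for naming after their values were seen.

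AIF1 was read in all 9 libraries. AKG-treated libraries 1, 2 and 3 had 461, 1095 and 513 counts of AIF1, or 12.4, 27.0 and 12.2 FPKM. AKG-free libraries 1, 2 and 3 had 768, 2291 and 7653 counts, or 16.9, 55.0 and 160 FPKM. Control libraries 1, 2 and 3 had 231, 429 and 273 counts, or 5.11, 13.2 and 7.29 FPKM. Every AKG-free library was above every control library, AKG-treated library 2 was above AKG-free library 1, and control library 2 was above AKG-treated libraries 1 and 3. The order of the means was AKG-free (77.2 ± 73.9 FPKM), AKG-treated (17.2 ± 8.48 FPKM) and control (8.52 ± 4.16 FPKM; SD, n = 3 each). Both neighbouring pairs in that order, AKG-free with AKG-treated and AKG-treated with control, had overlapping libraries.

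The AKG-free mean of AIF1 was 9.06-fold the control mean, and 4.22-fold without AKG-free library 3. The AKG-treated mean was 0.223 times the AKG-free mean, and 0.478 times without AKG-free library 3. The highest AKG-free library held 9.45 times the level of the lowest. This spread was 2.22-fold in AKG-treated and 2.57-fold in control libraries. Among the 23 genes read in all 3 AKG-free libraries, the AIF1 spread ranked 6 from the top and the CCL27 spread of 3.12-fold ranked 13, beside a median of 3.24-fold. AIF1 was among the 19 genes read in all 9 libraries. Of these 19, 14 had their highest mean in the AKG-free group, and 11 had the order AKG-free, AKG-treated, control, as AIF1 did.

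**Figure D1:**
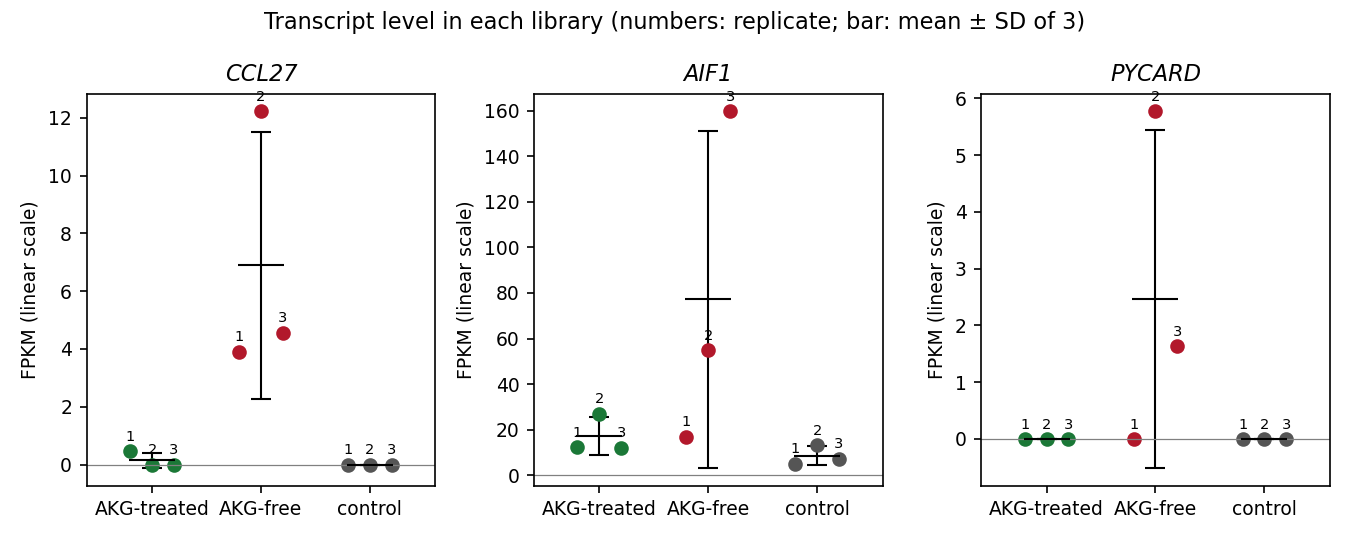
FPKM (linear axis) of CCL27, AIF1 and PYCARD in each AKG-treated, AKG-free and control library. Points are libraries numbered by replicate, and bars are the mean ± SD of 3 libraries. CCL27 and PYCARD peak in AKG-free library 2 (12.2 and 5.77 FPKM) and AIF1 in AKG-free library 3 (160 FPKM), while PYCARD is at 0 in AKG-free library 1.

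The levels of the 3 genes differed within a library. In AKG-free library 2, AIF1 had 55.0 FPKM, CCL27 had 12.2 FPKM and PYCARD had 5.77 FPKM. In AKG-free library 3, the order was the same, with 160, 4.56 and 1.63 FPKM. By its highest library AIF1 ranked 6 of the 47 genes, CCL27 ranked 20 and PYCARD ranked 25. AIF1 took 1.85%, 5.23% and 2.64% of the summed FPKM of the 47 genes in AKG-treated libraries 1, 2 and 3. Its share was 2.61%, 2.00% and 4.01% in AKG-free libraries, and 1.12%, 2.78% and 1.66% in control libraries. On this share the 3 groups overlapped. The sum covers a selected list and is not the whole RNA of a library.

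Setting AKG-free against control libraries addresses what vitrification and warming without AKG do to these transcripts. For 2 of the 3 members, CCL27 and AIF1, all AKG-free libraries were above all control libraries, beside 31.9% of the 47 genes. edgeR's quasi-likelihood test on the counts (Benjamini-Hochberg adjusted p below 0.05) called 1 of the 3 members higher, CCL27, beside 17% of the 47 genes higher and 10.6% lower. All 3 members were called by DESeq2 with relative depth (42 of 47 genes called) and by limma on log2(FPKM + 0.1) (24 of 47). edgeR with the replicate number as a block also called all 3 (38 of 47). CCL27 and AIF1 were called by limma on log2(FPKM + 1) without a filter (15 of 47) and with a filter of 0.5 FPKM (19 of 29). edgeR with that filter also called these 2 members (23 of 29). CCL27 passed the filter, a mean over all libraries, through its AKG-free libraries alone. DESeq2 with its own size factors (19 of 47) and edgeR on only the 6 libraries compared (4 of 47) called CCL27. CCL27 lost its edgeR call in each of the 9 fits that left out a library. AIF1 was called in 1 of them, without AKG-free library 1 (13 of 46 genes called). With scaling factors estimated from the 47 genes themselves (TMM), 1 gene was higher and 5 lower, in place of 8 and 5, and no member was called. The genes were selected for differing, so these calls are no test of the members, and nothing is read from the shares. On the log2 scale the ratios of AKG-free to control means were at least 5.74 for CCL27 and at least 5.15 for PYCARD, and 3.18 for AIF1. The median over the 47 genes was 3.45, with genes without reads in 1 group (22 of them in the controls) at their bound.

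**Figure D2:**
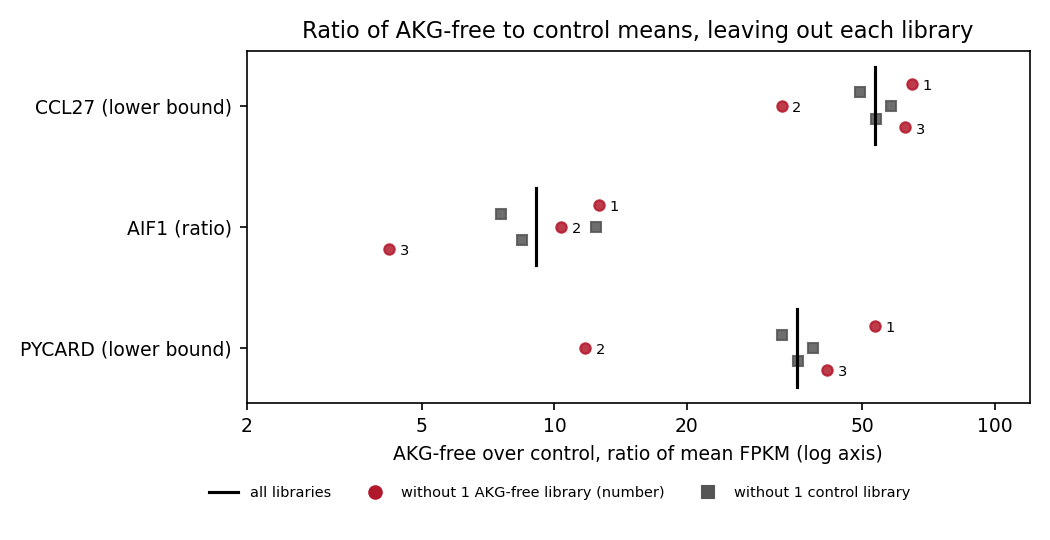
Ratio of the AKG-free to the control mean FPKM (log axis) for each gene, with all libraries (black line), without 1 AKG-free library (red points, numbered) and without 1 control library (grey squares). Values of CCL27 and PYCARD are lower bounds against a floor of 3 counts; the lowest values are 32.8 for CCL27 and 11.8 for PYCARD, both without AKG-free library 2, and 4.22 for AIF1 without AKG-free library 3.

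The size of the AIF1 difference depended on the scaling. With relative depth, edgeR gave AIF1 a log2 change of 3.18 in AKG-free over control libraries. TMM factors gave 1.36 and DESeq2's own size factors gave 0.88. The median of the 19 genes read in all libraries moved in the same way, from 2.13 with relative depth to 0.38 with TMM and 0.23 with DESeq2's factors. Relative to that median, AIF1 was higher in AKG-free libraries under all 3 scalings. TMM and DESeq2's factors take most genes as unchanged, while these genes were listed because they differ.

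Setting AKG-treated against AKG-free libraries addresses what AKG does in vitrified blastocysts. For 1 of the 3 members, CCL27, all AKG-treated libraries were below all AKG-free libraries, beside 25.5% of the 47 genes. edgeR called no member in either direction, beside 4.26% of the 47 genes higher and 0% lower. Before adjustment, 7 genes were lower with p under 0.05, while limma on log2(FPKM + 1) called 3 genes lower and DESeq2 with relative depth called 33. All 3 members were among those of DESeq2, and CCL27 was among those of limma. With the filter of 0.5 FPKM, edgeR called CCL27 too, with 11 of 29 genes lower. That filter took the mean over all 9 libraries. CCL27 passed it through its AKG-free libraries alone, with means of 0.152 FPKM in AKG-treated, 6.90 in AKG-free and 0 in control libraries. CCL27 was also called by limma on log2(FPKM + 0.1), with 6 of 47 genes lower. The same held for limma on log2(FPKM + 1) with the filter, with 10 of 29 genes lower. No member was called with TMM (4 of 47 genes called), DESeq2's own size factors (16 of 47) or the replicate block (2 of 47). Nor was any called on only the 6 libraries compared (0 of 47) or in the 9 fits that left out a library. The genes were selected for differing, so these calls too are no test of the members. Ratios of AKG-treated to AKG-free means on the log2 scale were -5.51 for CCL27, at most -5.23 for PYCARD and -2.17 for AIF1, beside a median of -3.14 over the 47 genes with bounds treated in the same way. The fitted AIF1 change was -0.62 with TMM and -0.52 with DESeq2's factors, beside medians of -0.18 and -0.36 over the 19 genes read in all libraries. This comparison shares its AKG-free libraries with the one before. In RNA of whole samples, fewer cells that express a gene and less of its RNA per cell cannot be told apart.

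The comparison of AKG-treated with control libraries asks what differs from the controls in vitrified blastocysts labelled AKG+. Its means come from those 6 libraries alone. The edgeR fit held all 9 libraries, so the AKG-free libraries entered the spread behind its SE, interval and p-value. AIF1 had 17.2 ± 8.48 FPKM in AKG-treated libraries and 8.52 ± 4.16 FPKM in control libraries (SD, n = 3 each). edgeR gave a log2 change of 1.01 (SE 0.967, 95% interval -1.25 to 3.27), which missed the threshold (adjusted p = 1). The interval reaches from a level below the control to one far above it, so equal levels are not shown. With edgeR on only the 6 libraries compared, the log2 change of AIF1 was 1.01 with adjusted p = 0.411, adjusted over the 27 genes tested there. The ratio of means, 2.02, became 1.44 without AKG-treated library 2 and 2.77 without control library 2. Of the 21 genes with reads in all 6 libraries, 15 were higher and 6 lower in AKG-treated libraries by the fitted change, and AIF1 ranked 4 from the top beside a median of 0.39. The 95% intervals of all 21 genes held 0.

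CCL27 in this comparison rested on 11 counts of AKG-treated library 1, and its AKG-treated mean was at least 1.17-fold above the control floor. edgeR's adjusted p was 1. Without that library both groups were at 0. PYCARD had no reads in either group, so no fold can be given, and the limit of 3 counts allowed up to 0.0802 FPKM in each of the 6 libraries. No member had separate groups here, beside 12.8% of the 47 genes with all AKG-treated libraries higher and 0% lower. Of the 47 genes, 20 had no reads in either group, PYCARD among them, so these could not separate. They still counted in the edgeR adjustment over 47 genes. edgeR called no gene in either direction (0% in each), and before adjustment 1 gene, which was higher, had p under 0.05. On only the 6 libraries compared, edgeR called 0 genes, with 4 of 27 tested genes under 0.05 before adjustment. limma on log2(FPKM + 1) and DESeq2 with relative depth also called 0 genes, with 1 and 3 genes under 0.05 before adjustment. The AKG-free mean was the extreme one in all 47 genes, so the list is no sample of all genes for this comparison either.

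**Figure D3:**
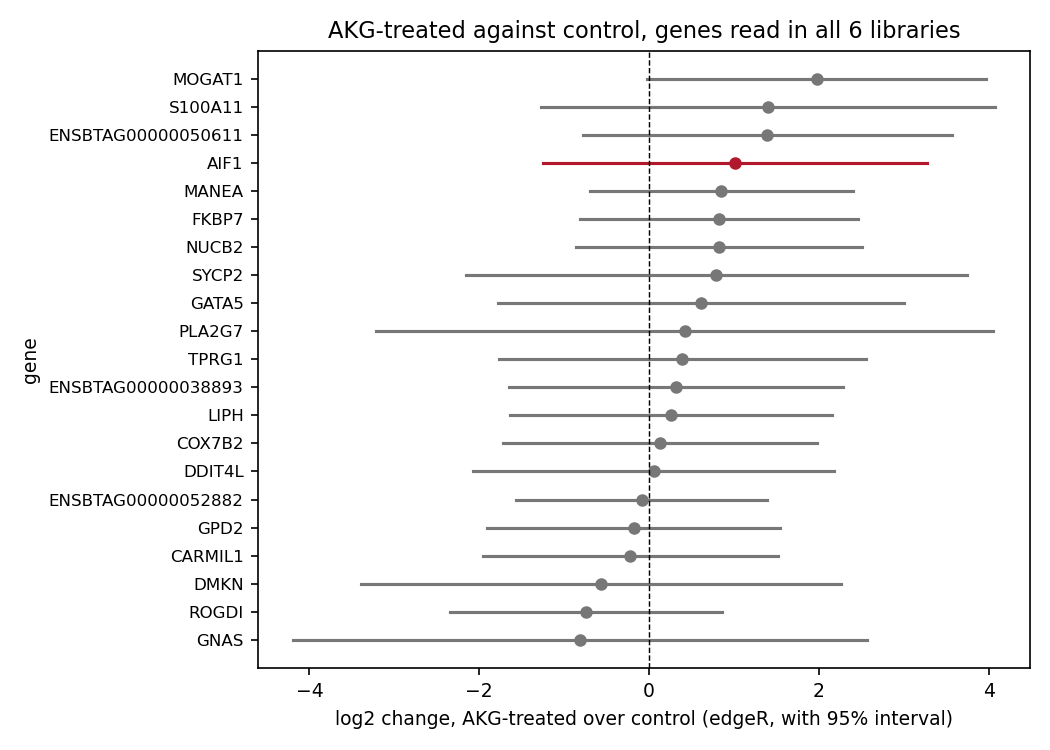
Log2 change of AKG-treated over control libraries in edgeR (1 fit over all 9 libraries), with its 95% interval (lines), for the 21 genes with reads in all 6 libraries. AIF1 (red) is at 1.01 with an interval from -1.25 to 3.27, and all 21 intervals hold 0.

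Profiles over the libraries were compared by expressing each gene's FPKM as a percent of its own highest library and taking the mean absolute difference over the 9 libraries. PYCARD was the nearest of the 46 other genes to CCL27, at 4.98 percentage points beside a median of 20.8. With centred and scaled log2 profiles, CRYAB and ENSBTAG00000052882 came before PYCARD. Neither CCL27 nor PYCARD had reads in AKG-treated libraries 2 and 3 or in the control libraries. Those libraries add nothing to the distance between the 2 genes. Both CCL27 and PYCARD peaked in AKG-free library 2, and in library 3 stood at 37.3% for CCL27 and 28.2% for PYCARD. They parted in AKG-free library 1, with 32.0% for CCL27 and 0 for PYCARD. Next to CCL27 came PAG11, one of the pregnancy-associated glycoproteins that ruminant trophoblast secretes, at 7.51 points. PAG11 had 62.2%, 100% and 35.4% of its highest value in AKG-free libraries 1, 2 and 3, and 25.1% in AKG-treated library 2, where CCL27 had no reads. The next place was tied among 11 genes read in AKG-free library 2 alone, at 8.11 points. The same 11 genes were the nearest to PYCARD, at 3.14 points, and CCL27 came after them with rank 12. Among genes with a mean of at least 0.5 FPKM, the nearest to PYCARD were ENSBTAG00000053475, CCL27 and PAG11.

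AIF1 had another profile. It stood 21.6 points from CCL27 and 21.8 from PYCARD, ranks 18 and 19 of 46, beside a median of 24.9 over all 46 genes. The nearest gene to AIF1 was ENSBTAG00000050611, a protein-coding gene without a symbol on the minus strand of chromosome 27, from 5960716 to 5968525, at 2.68 points. Its values in AKG-treated libraries 1, 2 and 3 were 19.6, 32.4 and 22.1 FPKM. Those in AKG-free libraries were 23.7, 103 and 232 FPKM, and those in control libraries 10.6, 5.26 and 12.3 FPKM. Both genes were highest in AKG-free library 3 and, within the AKG-treated group, in library 2, but control library 2 was the highest control for AIF1 and the lowest for ENSBTAG00000050611. DMKN, which encodes the epidermal protein dermokine, followed at 5.42 points, and MOGAT1, an enzyme that makes diacylglycerol, at 7.71 points. All these profiles share the same 9 libraries and their depth, and the distances were not recomputed without a library.

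**Figure D4:**
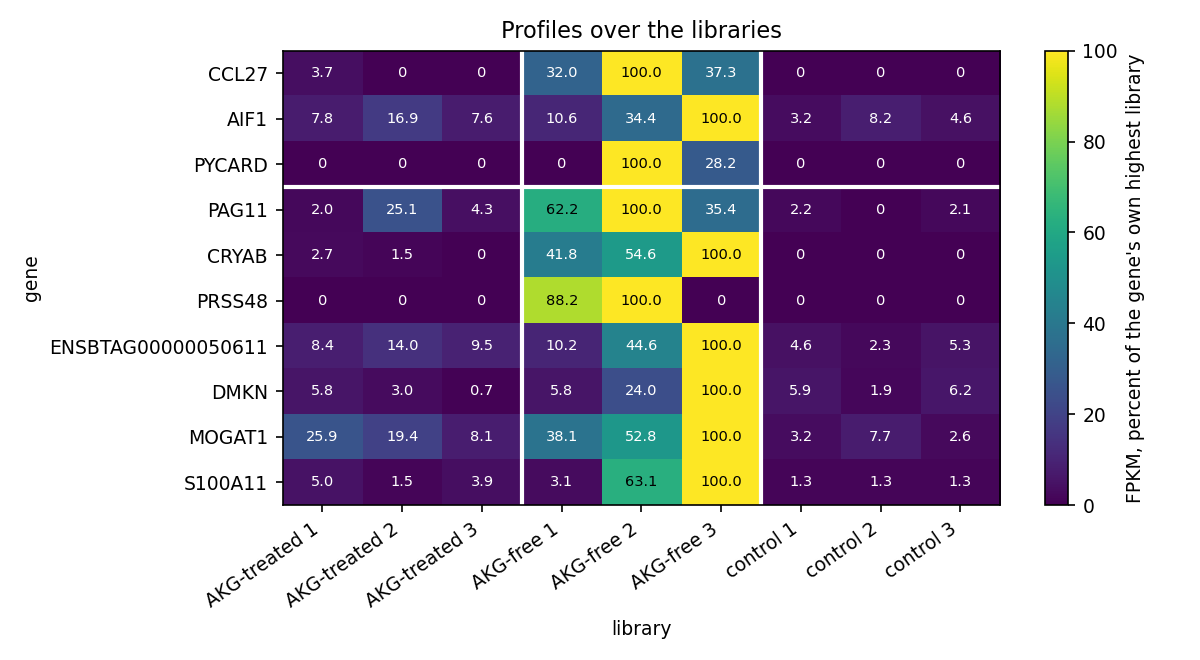
FPKM of each gene as a percent of its own highest library (colour and printed values) for CCL27, AIF1 and PYCARD (top 3 rows) and 7 other listed genes, over the AKG-treated, AKG-free and control libraries. CCL27 and PYCARD share the peak in AKG-free library 2, and AIF1, ENSBTAG00000050611 and DMKN share the peak in AKG-free library 3 with lower values in AKG-free library 1 (10.6%, 10.2% and 5.80%).

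Apart from the members themselves, no gene of the inflammation lists used here was in the table. These lists do not hold every gene linked to inflammation. The list of 18 inflammasome genes had 1 member in it, PYCARD, and the list of 28 CC chemokines and their receptors had 1, CCL27. The list of 22 cytokine and NF-kB genes had 0. The list of 19 markers of macrophages and other blood cells had 1, AIF1 itself. The sensors and caspases of the inflammasome, the receptor CCR10 and the other macrophage markers were not analysed here, so the part of immune cells in the AIF1 level was not tested. Of markers of the blastocyst lineages, the table held 1 of 13 for the trophectoderm, PAG11, 0 of 7 for the inner cell mass and 0 of 8 for the hypoblast, and it held 0 of 8 for cumulus cells and 0 of 6 for sperm. The mean level of PAG11 was 7.10 FPKM in AKG-treated, 44.7 FPKM in AKG-free and 0.984 FPKM in control libraries. PAG11 belongs to a family of similar genes, among which reads could have been divided.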

How the data were processed

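Per the labels' protocols, sequencing libraries for paired reads were made from bovine embryo RNA with the SMART-Seq v4 kit. The submitters' processing notes name cutadapt 1.9, HISAT2 2.0.4, StringTie 1.3.4d and edgeR without roles; the sources used here give no settings, build or annotation. The authors deposited FPKM for 47 genes in each of 9 tables and, in a series table, the same FPKM (identical in all 9) beside the count of each gene. Whether the 3 libraries of a group are separate pools of embryos is not stated in the labels: p-values reflect how far these libraries spread, and that spread may be technical. The labels name no batch or date.

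The counts of 47 genes are not a library, so relative depth was the median ratio of count to FPKM over 13 genes, those that reached 100 counts in each library (largest deviation 1.00%). Absolute depth is unknown. With that ratio, 1 FPKM equalled 25.4, 41.1 and 47.2 counts of CCL27, AIF1 and PYCARD at mean depth.

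Counts were tested with edgeR 4.0.16 (R 4.3.3; quasi-likelihood, library sizes from relative depth, no dispersion trend, all 9 libraries in 1 fit, all 47 genes kept, Benjamini-Hochberg over 47, threshold 0.05). The 95% interval used the SE implied by the F statistic. Ratios are of mean FPKM, with a floor of 3 counts in each library of a group without reads. Alternatives were TMM factors, DESeq2 1.42.0 with relative depth or its own size factors (outlier filter off, mean dispersion), limma 3.58.1 on log2(FPKM + 1) or log2(FPKM + 0.1), a mean of at least 0.5 FPKM, only the 6 libraries compared, the replicate number as a block, and leaving out each library. The edgeR code was also run on simulated counts with the same spread for all genes and groups, unlike these libraries. The outcome is not given here, and that run says nothing about the calls above. The members, the gene lists, the rule for named genes (the 3 members and, for each, the 3 genes nearest in profile with ties) and the tests were chosen with earlier results of these data known. No sequence of the members was used here. Python 3.11.15, numpy 2.4.6, pandas 2.3.3, scipy 1.17.1 and matplotlib 3.10.9 were used.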

Additional observations from a re-analysis of the deposited data

How the results depend on the processing

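In AKG-treated against control libraries, 0 genes were called under every alternative. The fitted changes of AIF1 (0.36 to 1.47 over 18 alternatives) and CCL27 (0.18 to 5.63 over 17 alternatives) stayed positive. Both genes missed the threshold, with adjusted p from 0.411 to 1. The CCL27 changes rest on 11 counts, and the lowest came from limma on log2(FPKM + 1). The fit without AKG-treated library 1 was left out for CCL27, since both groups then had 0 counts. In the other comparisons the fitted changes of all 3 members kept their sign under all 18 alternatives each. AIF1 ranged from 0.88 to 3.65 for AKG-free against control and from -2.65 to -0.52 for AKG-treated against AKG-free. The counts of called genes did depend on the settings. For AKG-free against control, 13 genes were called, but 6 with TMM, 42 with DESeq2 at relative depth, 23 with the filter of 0.5 FPKM, 24 with limma on log2(FPKM + 0.1), 4 with only the 6 libraries compared, and 0 to 13 leaving out 1 library (0 without AKG-treated library 2 or control library 2). For AKG-treated against AKG-free, 2 were called, but 4 with TMM, 16 with DESeq2's own factors, 42 with DESeq2 at relative depth, 18 with the filter, 6 and 13 with limma at pseudocounts of 1 and 0.1, 16 with limma and the filter, 0 with only the 6 libraries, and 0 to 3 leaving out 1 library (0 without AKG-treated library 2 or 3). The cause was not tested. With the replicate number as a block, 38 genes were called for AKG-free against control. The counts were then 2 for AKG-treated against AKG-free and 0 for AKG-treated against control. Deviations of libraries with the same number correlated over 0.1 for 1 of 9 pairs (-0.217 to 0.186). By these deviations, 1 of 9 libraries was closest to its own number. The listed genes were selected for differing, so these correlations cannot settle whether the numbers pair the libraries. Of the genes nearest to AIF1, 2 of 3 were also named with scaled log2 profiles; of the 13 nearest to CCL27 it was 1, PYCARD. A gene with 0 counts is limited to 3 counts by depth.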
